A study of Drosophila melanogaster with 16 samples.

Results

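L1 and L2 are lamina monopolar neurons of the Drosophila melanogaster visual system, and RNA sequencing of sorted cells from the pupal brain was used here to compare their transcriptomes gene by gene. The comparison rests on 4 libraries, 2 of L1 and 2 of L2, out of 16 libraries of 7 cell types. Genes were taken into it when they reached 1 RPKM (reads per kilobase of transcript, scaled to the number of mapped reads) in at least 2 of these 4 libraries, which gave 7451 member genes of 15682 in the table. Of the members, 6607 reached 1 RPKM in all 4 libraries. Another 217 entered through both L1 libraries with both L2 libraries under 1 RPKM, and 284 through both L2 libraries with both L1 libraries under it. The closest gene inside the rule was CG17159, with 1.11 and 1.0001 RPKM in L1 and 0.888 and 0.858 RPKM in L2. The closest outside was mus81, with 0.713 and 0.926 RPKM in L1 and 0.997 and 1.02 RPKM in L2.

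Both groups carried the genotype label wild type and the tissue label optical lobe, and both were described as lamina neurons. The dissection protocol gave 40 h after puparium formation for every sample and the table headings of both types carry the same number, but the age field read 24 h for L1 and 35 h for L2. The other types, used for their levels, carried age fields of 40 h (L3), 45 h (L4), 53 h (L5), 65 h (R7) and 96 h (R8). If the field is right, no difference given here can be assigned to cell type or to age, which cannot be told apart, and the same holds for levels set beside the other types. The labels do not say how either type was marked for sorting, or whether the libraries of a type came from separate animals, so p-values measure the spread between libraries, which may be technical. In sorted bulk samples, fewer cells expressing a gene and less RNA per cell cannot be told apart.

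L1 and L2 sit side by side in every cartridge of the lamina, the first optic neuropil of the fly. Both receive histamine from the photoreceptors R1 to R6 and both send an axon into the medulla, where L1 feeds the pathway for brightening edges and L2 the pathway for darkening edges. At the pupal stage studied the axons are choosing their medulla layers and partners, a step in which cell surface proteins of the immunoglobulin and leucine-rich repeat families are used as recognition cues. In other work L1 has been described as glutamatergic and L2 as cholinergic.

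The marker genes went with the labels. Seven-up (svp, FBgn0003651), a nuclear receptor used as an L1 marker, was at 45.2 and 54.2 RPKM in L1 and at 0.120 and 0.0791 RPKM in L2. Bric-a-brac 2 (bab2, FBgn0025525), a BTB transcription factor used as an L2 marker, was at 0.242 and 0.296 RPKM in L1 and at 74.3 and 63.8 RPKM in L2. The log2 difference, L1 minus L2 on the log2(RPKM + 1) scale, was 5.52 for svp (SE 0.19, limma adjusted p = 7.99e-10) and -5.78 for bab2 (SE 0.31, adjusted p = 4.2e-08). Neuronal genes were present in both types. The vesicle protein n-syb was at 208 and 201 RPKM in L1 and 201 and 210.2 RPKM in L2, elav, an RNA-binding protein of neurons, at 85.1 and 91.7 RPKM in L1 and 78.1 and 58.0 RPKM in L2, and Syt1, the calcium sensor of release, at 94.7 and 101 RPKM in L1 and 65.0 and 51.0 RPKM in L2.

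Markers of L3, L4, L5, glia and photoreceptors were low in all 4 libraries, though some were higher in L1 than in L2. The lists for blood cells and for cone and pigment cells were high in L1 through 1 gene each, Pxn and w, described below. Markers of the other lamina types stood at 0.242 and 0.425 RPKM in L1 and 0.334 and 0.235 RPKM in L2 for erm, the L3 factor, and at 0.416 and 0.556 RPKM in L1 and 0.517 and 0.492 RPKM in L2 for pdm3, an L5 factor. The L4 factor ap was at 1.66 and 1.49 RPKM in L1 and 0.849 and 0.736 RPKM in L2. Bsh, a factor of L4 and L5, was at 4.34 and 2.70 RPKM in L1 and 0.917 and 0.704 RPKM in L2. The 11 glial genes summed to 11.7 and 11.8 RPKM in L1 and 11.1 and 12.9 RPKM in L2. The glial factor repo was highest at 0.205 RPKM, in L1 replicate 2. The glial marker moody was at 1.31 and 1.32 RPKM in L1 and 0.981 and 1.03 RPKM in L2. The 17 photoreceptor genes summed to 18.7 and 38.2 RPKM in L1 and 12.95 and 13.4 RPKM in L2; 4 of them were members, and chaoptin (chp), a photoreceptor surface protein, was at 1.72 and 9.06 RPKM in L1 and 1.76 and 2.39 RPKM in L2. The photoreceptor marker gl was at 3.09 and 2.13 RPKM in L1 and 3.26 and 1.91 RPKM in L2. Recovered depth was 80.1 and 149.8 M reads in L1 and 114.9 and 110.9 M reads in L2. The mitochondrial share was 9.86 and 7.19% in L1 and 4.98 and 5.80% in L2, and the part of this gap in the differences below was not tested.

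Most genes were close in level in the 2 types, and a small set differed by more than 8-fold. Of the 7451 members, 770 (10.3%) differed at an adjusted p under 0.05 in limma, 376 (5.05%) higher in L1 and 394 (5.29%) higher in L2. Members that passed the rule through 1 type had to differ to enter, and among the 6607 at 1 RPKM or more in all 4 libraries 7.81% were called. The list shares below include members that passed through 1 type, as does the 10.3% beside them. The lists were chosen with earlier results of these data known, so their shares only describe them. Both L1 libraries stood above both L2 libraries for 27.4% of the members, and both L2 libraries above both L1 libraries for 45.1%. A test against a change of more than 2-fold called 203 members (2.72%), 99 higher in L1 and 104 higher in L2. By size alone, 58 called genes were more than 8-fold higher in L1 and 65 more than 8-fold higher in L2 on this scale, and 17 and 13 passed 32-fold. At the other end, 4692 members (63.0%) lay within 0.5 log2 of equality. The median difference over all members was -0.15, and after quantile normalization it was -0.00040, a shift of 0.14 to be read beside every small difference.

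The number of calls fell when a library was left out. A type left with 1 library has a less precise mean, so p-values tend to rise even where the difference hardly moves. The log2 difference of dpr20 was 1.20 in the main fit and 1.19 to 1.21 with a library left out. That of slp2 went from 0.98 to 0.72 without L1 replicate 2. A call lost in this way, here or below, does not by itself show that the difference depended on that library. Without L1 replicate 1 the calls were 218 and 194 (higher in L1 and higher in L2), without L1 replicate 2 they were 197 and 214, and without L2 replicate 2 they were 200 and 209. Of the 770 genes, 358 kept their call and direction when each of the 4 libraries was left out in turn, 187 higher in L1 and 171 higher in L2. After quantile normalization 640 of the 770 (83.1%) were still called. None of the 770 changed sign, but their smallest difference, 0.61, exceeded the 0.14 shift of the median, so this was a weak check.

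**Figure D1:**
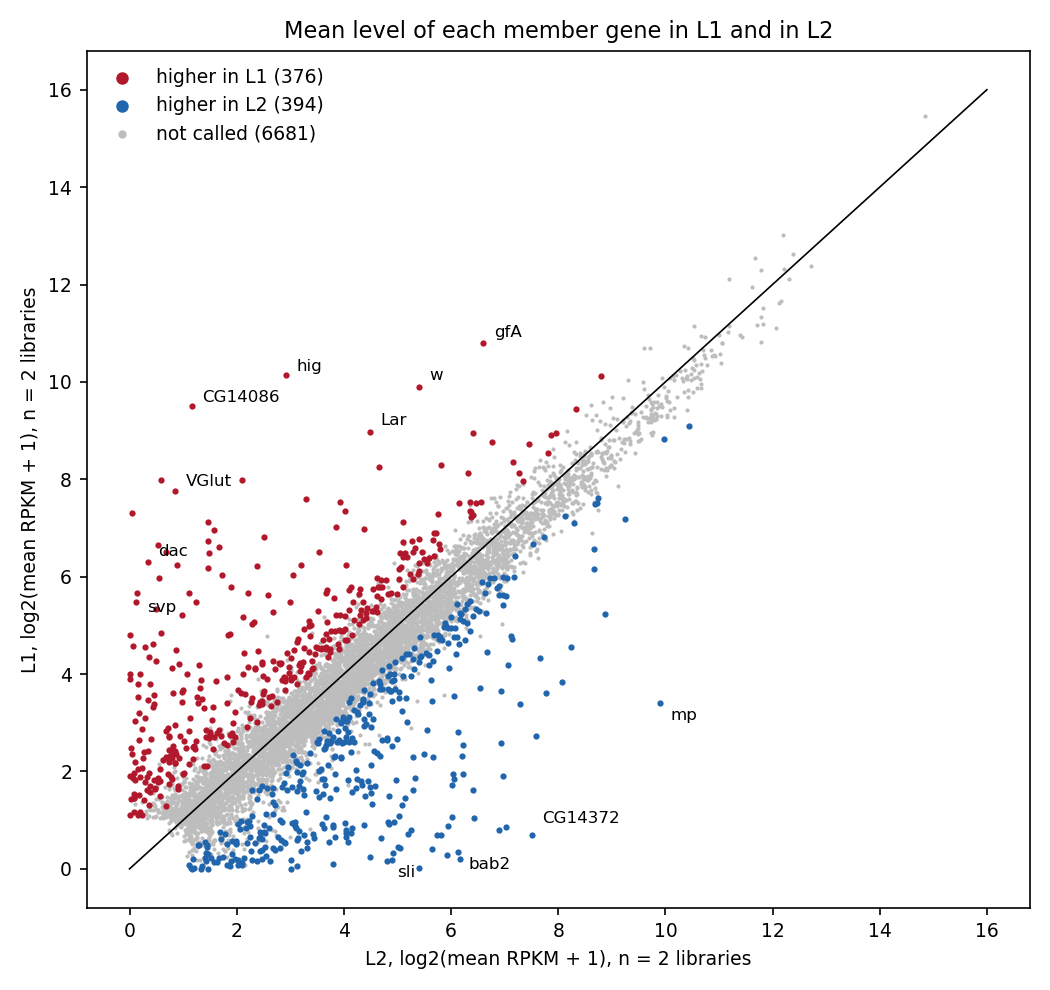
Mean level of each of the 7451 member genes in L1 (vertical axis) and L2 (horizontal axis), both as log2 of the mean RPKM of 2 libraries plus 1, with the diagonal marking equal levels. Red points are the 376 genes higher in L1, blue points the 394 higher in L2 (limma adjusted p under 0.05) and grey points the rest; svp, hig and VGlut stand far above the diagonal, and bab2, mp and CG14372 far below it.

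The L1-higher and L2-higher genes were not all private to their type. Among the 99 genes past 2-fold higher in L1, the median level was 35.9 RPKM in L1 and 1.01 RPKM in L2, and L1 had the highest mean of the 5 lamina types for 61. Among the 104 past 2-fold higher in L2, the median was 0.880 RPKM in L1 and 29.1 RPKM in L2, and L2 had the highest mean for 52. The medians of the first set in L3, L4 and L5 were 12.8, 5.59 and 2.35 RPKM, and those of the second set were 5.44, 7.76 and 4.69 RPKM.

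The widest gap in favour of L1 belonged to CG14086 (FBgn0036860), at 713 and 737 RPKM in L1 and 1.88 and 0.596 RPKM in L2, a log2 difference of 8.40 (SE 0.40, adjusted p = 1.53e-08). Side-II (CG42313, FBgn0259213), a receptor of the immunoglobulin superfamily, followed with 263 and 239 RPKM in L1 and 0.600 and 0.423 RPKM in L2. Cyp313a5 (FBgn0038005), a cytochrome P450, had 163 and 152 RPKM in L1 and 0.0463 and 0.006 RPKM in L2. Of these, only CG14086 was above 10 RPKM in L3 and L4, at 30.6 and 38.0 RPKM, while Side-II reached 78.6 RPKM in L5 and Cyp313a5 stayed under 1 RPKM in every other type.

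Hikaru genki (hig, FBgn0010114), a secreted protein of the synaptic cleft, combined a wide gap with a very high level. It had 1090.0 and 1164 RPKM in L1 and 6.25 and 6.96 RPKM in L2, a log2 difference of 7.21 (SE 0.36, adjusted p = 2.41e-08). Its mean was 51.5 RPKM in L5, the next highest type. The remaining L1-higher genes among the 15 with the greatest differences were VGlut, CG43319, dac, CG12880, CG6044, CG11317, svp, CG32432, SoxN, beat-VI and dpr15, with log2 differences of 6.92 for VGlut to 5.35 for dpr15. CG43319 and CG12880 lie next to each other in the current annotation; their levels were 112 and 87.5 RPKM in L1 and 0.621 and 0.282 RPKM in L2 for CG43319, and 223 and 279 RPKM in L1 and 2.33 and 4.25 RPKM in L2 for CG12880. CG12880 shares 16.1% of its exonic bases with a gene on the other strand, and the strand setting of the counting is not given in the sources used here.

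On the L2 side the widest gap was that of Side-IV (CG14372, FBgn0038156), another receptor of the side family, at 0.524 and 0.713 RPKM in L1 and 195 and 167 RPKM in L2. Its log2 difference was -6.81 (SE 0.22, adjusted p = 6.58e-10). In the current annotation 67.5% of its exonic bases are shared with antisense genes, so its reads are uncertain. Multiplexin (mp, FBgn0260660), a basement membrane collagen, had 10.2 and 8.91 RPKM in L1 and 939.5 and 976 RPKM in L2, a log2 difference of -6.50 (SE 0.31, adjusted p = 1.53e-08). Multiplexin was also high in other lamina neurons, since L3 averaged 806 RPKM and L4 1431 RPKM, with L5 at 9.18 RPKM.

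The other L2-higher genes of the 15 were CG15537, dpr13, CG13739, bab2, dpr6, CG30095, bab1, Or45a, CG7991, grn, rgn, CG34326 and CG32521, with log2 differences of -6.16 for CG15537 to -4.95 for CG32521. CG7991 (FBgn0035260) stood out in pattern, with 0.532 and 0.700 RPKM in L1 and 60.9 and 49.7 RPKM in L2, and means of 56.3 to 75.1 RPKM in the 5 other types. Among these 7 types L1 was the low one. Or45a (FBgn0033404), which encodes an odorant receptor, was at 0.307 and 0.357 RPKM in L1 and 61.6 and 36.6 RPKM in L2, and under 1 RPKM in every other type. CG13739 shares 42.5% of its exonic bases with other genes, and its split of reads is uncertain.

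**Figure D2:**
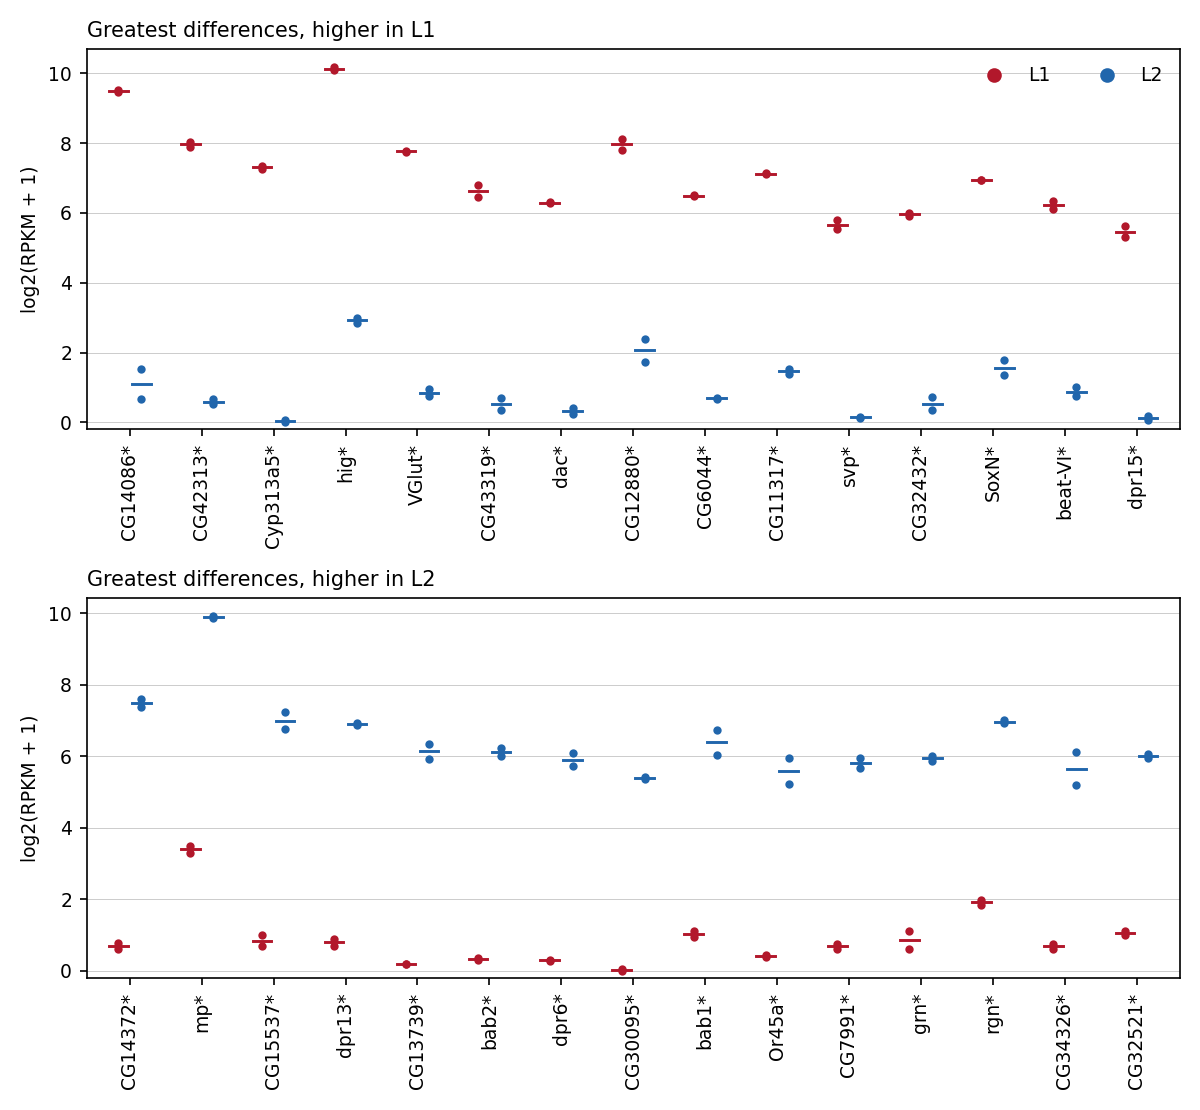
Level of the 15 genes with the greatest differences in each direction, as log2(RPKM + 1), with each point 1 library and each bar the mean of 2; L1 is red and on the left of each pair, L2 blue and on the right, and an asterisk marks an adjusted p under 0.05. The libraries of the 2 types do not overlap for any gene shown, and L2 lies under 3 on this scale for all 15 genes of the upper panel.

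Transcription factors of the lamina divided into factors of 1 type and factors shared by both. Of 12 members on the list, 5 rose in L1 and 2 were higher in L2, against the 10.3% called among all members. The called genes include the markers svp and bab2. Svp, dac, zfh1, bsh and bab2 passed the entry rule through the higher type alone and so had to differ. Dachshund (dac, FBgn0005677), a nuclear cofactor of eye and brain development, was at 76.9 and 77.9 RPKM in L1 and 0.340 and 0.189 RPKM in L2, a log2 difference of 5.96 (SE 0.20, adjusted p = 7.99e-10). L2 was the exception here, because L3, L4 and L5 averaged 88.7, 134 and 59.9 RPKM of dac. The zinc finger homeodomain factor zfh1 had 14.2 and 15.7 RPKM in L1 and 0.171 and 0.124 RPKM in L2, and was also at 15.8 RPKM in L3. SoxN, a Sox-family factor outside the list, showed the same gap of L2 as dac, with 122 and 124 RPKM in L1, 2.44 and 1.54 RPKM in L2 and 276 to 388 RPKM on average in L3 to L5.

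Bab1 (FBgn0004870) went with bab2, from which it is separated by 1 annotated gene on the chromosome. It had 0.938 and 1.17 RPKM in L1 and 106 and 65.1 RPKM in L2. The GATA factor grain (grn, FBgn0001138) was at 1.15 and 0.519 RPKM in L1 and 58.0 and 63.5 RPKM in L2, with 40.2 RPKM in L3 and 93.2 RPKM in L4. Brain-specific homeobox (bsh), the factor of L4 and L5, was called higher in L1 but at a low level, 4.34 and 2.70 RPKM in L1 and 0.917 and 0.704 RPKM in L2, against 509.6 RPKM in L4.

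Sloppy paired 1 (slp1), a forkhead factor, was high in both types, at 411 and 463 RPKM in L1 and 300.4 and 344 RPKM in L2, and did not pass the test (adjusted p = 0.281), but was called after quantile normalization (0.0475). Its paralog slp2 had 134 and 192 RPKM in L1 and 77.6 and 83.8 RPKM in L2 (log2 difference 0.98, SE 0.25, adjusted p = 0.0294). That call was lost without L1 replicate 2 (0.276), L2 replicate 1 (0.14) or L2 replicate 2 (0.137), with a pseudocount of 0.1 (0.078) and in the 12 lamina libraries alone (0.0755). The factors sim and scro were also close, with sim at 16.6 and 19.9 RPKM in L1 and 17.2 and 14.1 RPKM in L2, and scro at 98.4 and 110.1 RPKM in L1 and 84.3 and 91.3 RPKM in L2. On a list of other neuronal transcription factors 1 of 9 members was called, higher in L1 (11.1%, near the 10.3% of all members). That call ended when any of the 4 libraries was left out.

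Some genes had the pattern of svp or bab2 across types. Over the means of 7 types on the log2 scale, the genes most like svp were CG13384 (Pearson r = 0.991), CG17738 (0.986), CG32369 (0.980), CG11319 (0.979) and snoRNA:Me28S-C788b (0.973). CG17738 was the one that reached 10 RPKM and was near 0 elsewhere, with 25.7 and 12.9 RPKM in L1 and 0.106 and 0.483 RPKM in L2. The genes most like bab2 were bab1 (0.990), CG13739 (0.986), CG14372 (0.986), CG13455 (0.981) and Or45a (0.981). These values describe 7 points that share libraries, and genes with a peak in 1 type give high values by that alone.

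Of 9 transmitter members 1 was higher in L1 and 2 were higher in L2, 33.3% called against 10.3% of all members. The called genes, VGlut, VAChT and Cha, all passed the entry rule through the higher type alone and so had to differ. VGlut (FBgn0031424), the vesicular glutamate transporter, was at 214 and 220.3 RPKM in L1 and 0.672 and 0.941 RPKM in L2, a log2 difference of 6.92 (SE 0.50, adjusted p = 6.7e-07). VAChT (FBgn0015323), the vesicular acetylcholine transporter, was at 0.732 and 0.544 RPKM in L1 and 38.1 and 33.0 RPKM in L2, a log2 difference of -4.48 (SE 0.26, adjusted p = 8.55e-08). Cha (FBgn0000303), choline acetyltransferase, was at 0.657 and 0.970 RPKM in L1 and 14.7 and 11.1 RPKM in L2, a log2 difference of -2.93 (SE 0.30, adjusted p = 1.84e-05).

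VGlut was under 5 RPKM on average in the 5 other types, so among these 7 types its high level was found in L1. VAChT was at 31.6 to 34.1 RPKM in L3, L4 and L5, close to its level in L2, and L1 was the lamina type with little of it. Cha and VAChT share an exon, 15.1% of the exonic bases of Cha. The 6 other transmitter members did not pass the test. Among them was VGAT, the vesicular GABA transporter, with 12.8 and 13.8 RPKM in L1 and 7.36 and 8.73 RPKM in L2 (adjusted p = 0.124). After quantile normalization VGAT (0.0466) and Tbh, the enzyme that makes octopamine (0.0182), were called higher in L1, as they were in the 4 libraries alone (0.044 and 0.0247). Tbh was low, at 1.64 and 1.99 RPKM in L1 and 0.810 and 0.759 RPKM in L2. It passed the entry rule through L1 alone. The 11 transmitter genes that were not members stayed at or under 1.06 RPKM in all 4 libraries.

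Receptors for acetylcholine leaned to L1 in the comparison with L2. Of 8 nicotinic and muscarinic members, 5 rose in L1 and none in L2, 62.5% called against 5.05% of all members higher in L1, and 4 were called without L1 replicate 1, L1 replicate 2 or L2 replicate 2. The list median was 1.16, against -0.15 for all members. The alpha7 nicotinic subunit (gfA, FBgn0086778) had 1753 and 1810.0 RPKM in L1 and 118 and 74.2 RPKM in L2, a log2 difference of 4.23 (SE 0.25, adjusted p = 8.55e-08). It averaged 967 RPKM in L3 and 984 RPKM in R8.

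Other subunits differed less. Alpha1 (nAcRalpha-96Aa) was at 49.5 and 49.4 RPKM in L1 and 13.5 and 9.90 RPKM in L2, and alpha2 (nAcRalpha-96Ab) at 84.5 and 92.4 RPKM in L1 and 29.5 and 34.6 RPKM in L2. The muscarinic receptor mAcR-60C had 8.78 and 10.8 RPKM in L1 and 1.06 and 0.866 RPKM in L2. For all 3 both L1 libraries stood above both L2 libraries, as they did for 2041 of all members. These receptors were not particular to L1. In L3, L4 and L5 alpha1 averaged 49.8, 39.3 and 2.25 RPKM, and alpha2 117, 71.0 and 7.49 RPKM. In the same order mAcR-60C averaged 34.9, 12.35 and 29.9 RPKM, and the beta1 subunit 323, 291 and 445 RPKM. The beta1 subunit (nAcRbeta-64B) was at 274 and 285 RPKM in L1 and 172 and 133 RPKM in L2 (log2 difference 0.88, SE 0.19, adjusted p = 0.0112), and its call was lost without L1 replicate 1 (0.0758), L1 replicate 2 (0.094) or L2 replicate 2 (0.166).

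Among 13 receptors for glutamate, GABA and histamine, 4 rose in L1 and 1 was higher in L2, 38.5% called against 10.3% of all members. Ort, the histamine-gated chloride channel through which lamina neurons receive photoreceptor input, was at 8.23 and 9.41 RPKM in L1 and 1.71 and 1.51 RPKM in L2, a log2 difference of 1.91 (SE 0.28, adjusted p = 0.000484). L3 averaged 17.9 RPKM. HisCl1, the other histamine channel, did not pass the test, with 1.08 and 1.63 RPKM in L1 and 1.49 and 2.33 RPKM in L2. Grd, a ligand-gated chloride channel subunit of the GABA receptor family, was at 5.14 and 5.38 RPKM in L1 and 0.167 and 0.0864 RPKM in L2, although 27.5% of its exonic bases are shared with an antisense gene. Grd passed the entry rule through L1 alone and so had to differ.

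Several receptors at high level did not pass the test. The kainate-type receptor CG3822 (KaiR1D) was at 553 and 470.5 RPKM in L1 and 477 and 366 RPKM in L2, and the glutamate-gated chloride channel GluClalpha at 97.7 and 108 RPKM in L1 and 119.7 and 96.6 RPKM in L2, where the ranges overlap. Lcch3, a GABA receptor subunit, was at 259 and 219 RPKM in L1 and 159 and 162 RPKM in L2 (adjusted p = 0.113), and was called higher in L1 after quantile normalization (0.0104) and in the 4 libraries alone (0.0387). Other genes share 31.3% of its exonic bases. Leaving out any library brought the 4 calls higher in L1 to 2, and leaving out L1 replicate 2 ended the call higher in L2. Nmdar1 (0.66, adjusted p = 0.0198) and GluRIIE (1.11, adjusted p = 0.0244) each lost the call when any of the 4 libraries was left out, at adjusted p of 0.0844 to 0.153 for Nmdar1 and 0.0547 to 0.235 for GluRIIE. The Nmdar1 call was also lost with a pseudocount of 0.1 (0.0794) and in the 12 lamina libraries alone (0.0616). GABA-B-R1, higher in L2 by -0.94 (adjusted p = 0.00364), lost it without L1 replicate 2 (0.0653) and after quantile normalization (0.0569).

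**Figure D3:**
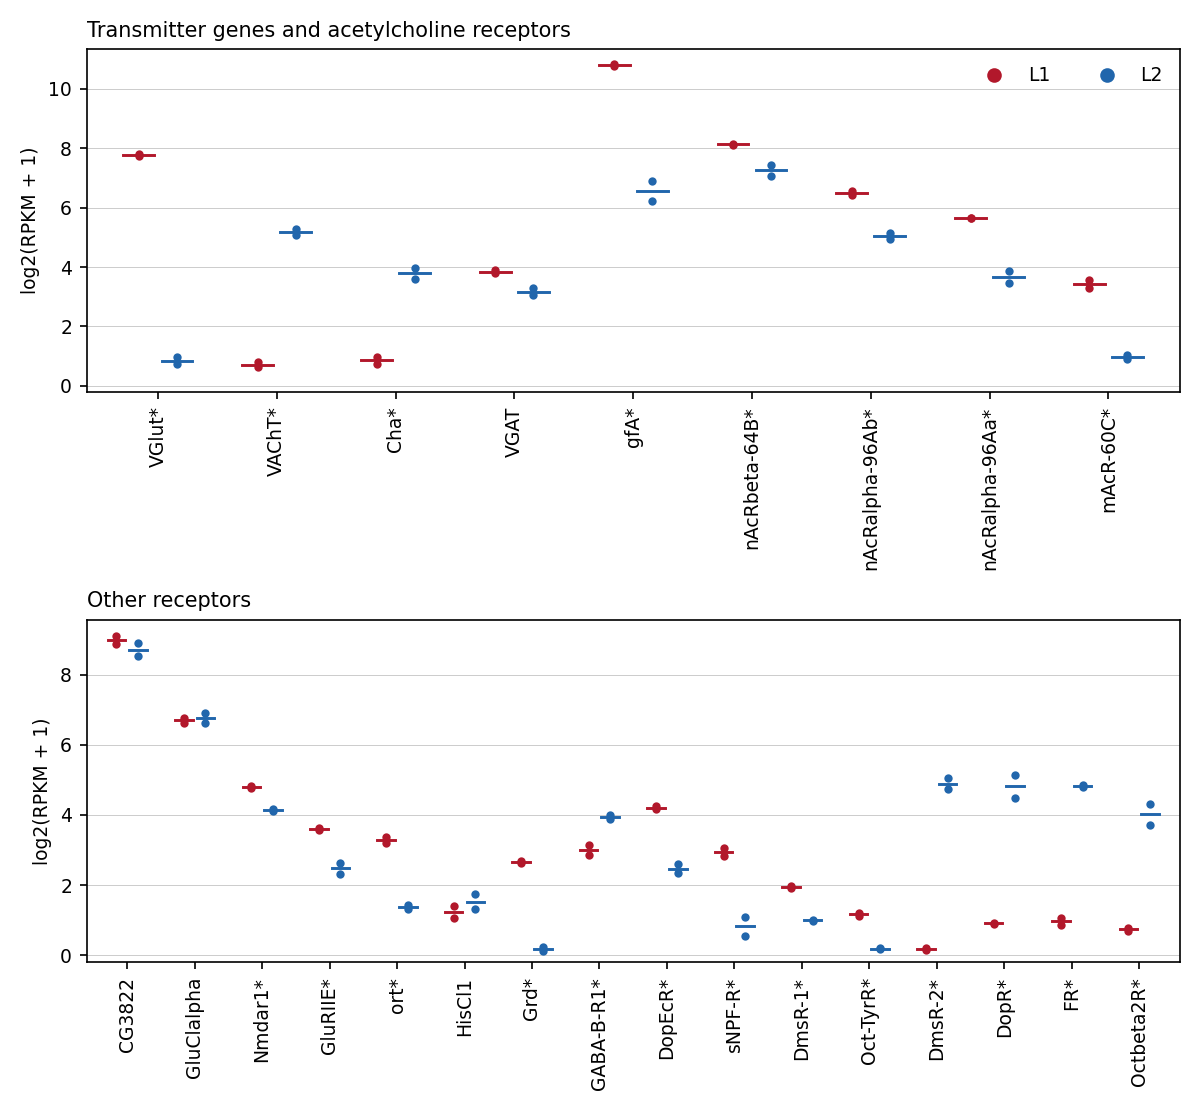
Levels of transmitter genes and acetylcholine receptors (upper panel) and of other receptors (lower panel) as log2(RPKM + 1), each point 1 library and each bar the mean of 2, with L1 red and on the left and L2 blue and on the right. Asterisks mark an adjusted p under 0.05; VGlut is high in L1 and not in L2, VAChT and Cha in L2 and not in L1, and 4 receptors for amines and peptides at the right of the lower panel are high in L2.

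Receptors for amines and peptides went both ways, with 4 of 15 members higher in L1 and 4 higher in L2, 53.3% called against 10.3% of all members. The 4 higher in L2 had the wider gaps. DmsR-2, DopR, Octbeta2R, Oct-TyrR and DmsR-1 passed the entry rule through the higher type alone and so had to differ. DmsR-2, a myosuppressin receptor, was at 0.154 and 0.110 RPKM in L1 and 32.0 and 25.7 RPKM in L2, a log2 difference of -4.71 (SE 0.19, adjusted p = 4.77e-09). DopR, a dopamine receptor of the D1 type, was at 0.874 and 0.896 RPKM in L1 and 34.3 and 21.4 RPKM in L2. Both were under 3 RPKM on average in the 5 other types.

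Octbeta2R, an octopamine receptor, was at 0.607 and 0.728 RPKM in L1 and 18.8 and 12.2 RPKM in L2. FR, the FMRFamide receptor, was at 1.07 and 0.836 RPKM in L1 and 27.7 and 26.7 RPKM in L2, and also at 18.4 to 43.6 RPKM on average in L3 to L5. Those 4 calls held without each library in turn. On the L1 side DopEcR, a receptor for dopamine and ecdysteroids, had 16.9 and 18.2 RPKM in L1 and 5.11 and 4.05 RPKM in L2. Oct-TyrR was called at the low level of 1.19 and 1.31 RPKM in L1 and 0.137 and 0.144 RPKM in L2.

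The calls of sNPF-R (2.12, adjusted p = 0.0135) and DmsR-1 (0.95, adjusted p = 0.00663) ended without L1 replicate 1 (0.0697 and 0.0541), L1 replicate 2 (0.108 and 0.0651) or L2 replicate 2 (0.15 and 0.0566), and that of DmsR-1 also ended with a pseudocount of 0.1 (0.0552). The count higher in L1 was then 2 in place of 4. Of 6 neuropeptide members 1 rose in L1 and 1 was higher in L2, 33.3% called against 10.3% of all members. The called genes, CG8216 and Nplp1, passed the entry rule through the higher type alone and so had to differ. CG8216 (spab) was at 0.530 and 0.578 RPKM in L1 and 22.5 and 26.9 RPKM in L2, with 19.0 RPKM in L4 and 30.6 RPKM in L5. Nplp1 was called higher in L1 at 1.01 and 1.32 RPKM, against 0.0338 and 0.198 RPKM in L2 (adjusted p = 0.0264), and lost the call when any of the 4 libraries was left out (0.0951 to 0.199), with a pseudocount of 0.1 (0.0549) and in the 12 lamina libraries alone (0.0679).

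Innexins form the gap junctions of insects, and 2 of 5 members were called (40.0%, against 10.3% of all members). Inx5 was at 5.76 and 6.83 RPKM in L1 and 0.147 and 0.215 RPKM in L2 (log2 difference 2.62, SE 0.19, adjusted p = 8.5e-07). It passed the entry rule through L1 alone and so had to differ. Inx3 was at 1.84 and 2.20 RPKM in L1 and 6.91 and 13.3 RPKM in L2 (-1.82, SE 0.39, adjusted p = 0.00948), and that call ended without L1 replicate 1 (0.0884), L1 replicate 2 (0.0558) or L2 replicate 2 (0.149). ShakB, the innexin with the highest level here, did not pass the test at 202 and 197 RPKM in L1 and 158 and 111 RPKM in L2 (adjusted p = 0.405).

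The recognition proteins of the immunoglobulin superfamily held many of the sharpest differences. Dpr proteins bind DIP proteins, and Beat proteins bind Side proteins, so that members of a pair of families on facing neurites can meet. Of 19 dpr members, 6 rose in L1, 6 were higher in L2 and 7 did not pass the test, 63.2% called against 10.3% of all members. Of the 7, dpr19 was called higher in L1 after quantile normalization (adjusted p = 0.0381). Higher in L1 were dpr15, dpr3, dpr2, dpr5, dpr20 and dpr10, and higher in L2 were dpr13, dpr6, dpr12, dpr8, dpr11 and dpr9. Of these, dpr15, dpr3, dpr2, dpr13, dpr6, dpr12 and dpr11 passed the entry rule through the higher type alone and so had to differ.

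Dpr15 (FBgn0037993) was at 39.0 and 48.0 RPKM in L1 and 0.140 and 0.0387 RPKM in L2, a log2 difference of 5.35 (SE 0.22, adjusted p = 5.04e-09). Dpr3 was at 21.6 and 21.5 RPKM in L1 and 0.749 and 0.887 RPKM in L2, and dpr2 at 9.52 and 9.43 RPKM in L1 and 0.482 and 0.271 RPKM in L2. These 3 were close to absent from L2; L3 shared dpr3 and dpr2, at 117 and 12.2 RPKM. Dpr10 was present in both types, at 111 and 126 RPKM in L1 and 55.2 and 48.2 RPKM in L2. The calls of dpr5 (1.59, adjusted p = 0.0193) and dpr20 (1.20, adjusted p = 0.0393) were lost when any of the 4 libraries was left out (0.0823 to 0.136 for dpr5, 0.136 to 0.211 for dpr20), and without the filter on low values (0.0524 and 0.084). The dpr20 call was also lost with a pseudocount of 0.1 (0.0933) and in the 12 lamina libraries alone (0.0907).

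Dpr13 (FBgn0034286) was at 0.872 and 0.618 RPKM in L1 and 121 and 116 RPKM in L2, a log2 difference of -6.10 (SE 0.29, adjusted p = 1.31e-08). Dpr6 (FBgn0040823) was at 0.214 and 0.238 RPKM in L1 and 67.0 and 52.2 RPKM in L2, and dpr12 (FBgn0085414) at 0.901 and 0.584 RPKM in L1 and 36.4 and 37.7 RPKM in L2. Dpr8 was at 4.51 and 3.40 RPKM in L1 and 79.1 and 65.7 RPKM in L2. L1 was the lamina type with the lowest dpr6 and dpr8, since L3, L4 and L5 averaged 11.4 to 89.8 RPKM of dpr6 and 185 to 437 RPKM of dpr8.

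Dpr11 and dpr9 had lower levels, with dpr11 at 0.188 and 0.207 RPKM in L1 and 4.38 and 5.24 RPKM in L2, and dpr9 at 2.13 and 2.10 RPKM in L1 and 12.5 and 14.5 RPKM in L2. The dpr9 call was lost without L2 replicate 2 (adjusted p = 0.052). Dpr6 and dpr10 bind the same partner, DIP-alpha, in published interaction screens, and here dpr10 was in both types while dpr6 was in L2. DIP-gamma (CG14521), a partner of dpr11 and dpr15, was the only DIP among the members, at 5.50 and 5.48 RPKM in L1 and 1.03 and 0.326 RPKM in L2 (1.99, SE 0.37, adjusted p = 0.00399), and its call was lost without L2 replicate 2 (0.0672). The 9 other DIP genes did not pass 1.08 RPKM in any of the 4 libraries.

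In the beat family 2 of 9 members rose in L1 and 2 were higher in L2, 44.4% called against 10.3% of all members. Beat-VI (FBgn0039584) was at 68.1 and 80.8 RPKM in L1 and 1.02 and 0.675 RPKM in L2, a log2 difference of 5.35 (SE 0.17, adjusted p = 6.58e-10). Beat-IV (FBgn0039089) was at 3.25 and 1.96 RPKM in L1 and 69.2 and 62.0 RPKM in L2, and beat-VII at 0.730 and 1.02 RPKM in L1 and 14.8 and 11.1 RPKM in L2. Beat-VII was under 2 RPKM on average in each other type, whereas beat-IV averaged 60.02 RPKM in L3 and 149 RPKM in L4.

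Beat-IIIb was level, at 98.8 and 108 RPKM in L1 and 103 and 96.3 RPKM in L2. Beat-IIb was low, at 4.20 and 3.37 RPKM in L1 and 0.997 and 1.52 RPKM in L2 (adjusted p = 0.0109), and its call ended without L1 replicate 1 (0.127), L2 replicate 1 (0.1) or after quantile normalization (0.0563). Of 4 side members, Side-II rose in L1 and Side-IV was higher in L2, 50.0% called against 10.3% of all members. Side-II and Side-IV passed the entry rule through the higher type alone and so had to differ. Side-II is a published binding partner of Beat-VI, and both were high in L1. Both were also high in L5, where Side-II averaged 78.6 RPKM and beat-VI 177 RPKM. In L4 beat-VI averaged 54.8 RPKM and Side-II 2.20 RPKM. Side itself, at 35.2 and 34.6 RPKM in L1 and 13.6 and 9.11 RPKM in L2, did not pass the test (adjusted p = 0.0574). It was called higher in L1 after quantile normalization (0.0344), with a pseudocount of 0.1 (0.0476), in the 4 libraries alone (0.0108) and with members alone in the fit (0.0438).

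**Figure D4:**
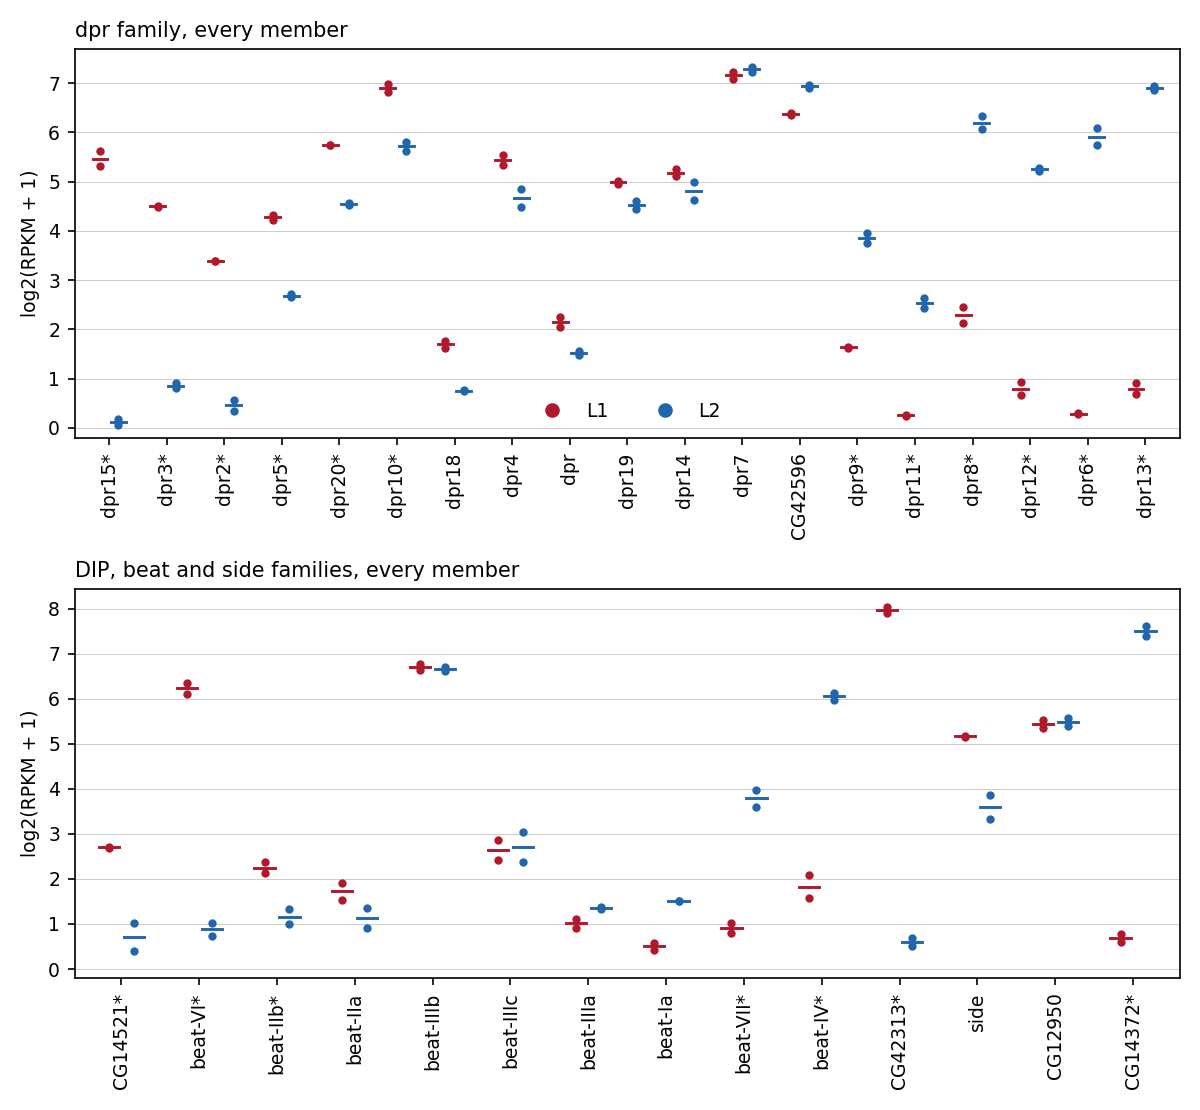
Levels of every member of the dpr family (upper panel) and of the DIP, beat and side families (lower panel) in order of their log2 difference within a family, as log2(RPKM + 1), each point 1 library and each bar the mean of 2, with L1 red and on the left and L2 blue and on the right. Asterisks mark an adjusted p under 0.05 (6 and 6 of 19 dpr members); CG14521 is DIP-gamma, CG42313 Side-II, CG14372 Side-IV, CG12950 Side-VII and CG42596 dpr21.

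Of 20 ligands and receptors on the axon guidance list, 5 rose in L1 and 1 was higher in L2, 30.0% called against 10.3% of all members; without L1 replicate 1, L1 replicate 2 or L2 replicate 2 the L1 count was 3. The gene higher in L2 was slit (sli, FBgn0264089), the secreted ligand of Robo receptors, at 0.144 and 0.103 RPKM in L1 and 29.9 and 24.1 RPKM in L2, a log2 difference of -4.63 (SE 0.26, adjusted p = 6.22e-08). Slit was under 3 RPKM on average in each other type. It passed the entry rule through L2 alone and so had to differ. Its receptor robo3 was higher in L1, at 9.31 and 10.0 RPKM in L1 and 1.43 and 1.45 RPKM in L2.

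Derailed (drl), a receptor for Wnt5, was at 322 and 285 RPKM in L1 and 23.4 and 24.8 RPKM in L2, a log2 difference of 3.60 (SE 0.24, adjusted p = 3.68e-07). Off-track (otk), a transmembrane protein with an inactive kinase domain, was at 51.8 and 47.5 RPKM in L1 and 1.17 and 1.16 RPKM in L2. Both stood above 50 RPKM on average in R7 and R8 as well.

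Of 14 cadherins, receptor phosphatases and proteoglycans, 4 rose in L1 and 3 were higher in L2, and without L1 replicate 2 or L2 replicate 1 only 1 call higher in L2 remained. After quantile normalization it was also 1. In the main fit 50.0% of this list was called, against 10.3% of all members. Lar (FBgn0000464), a receptor tyrosine phosphatase used in layer choice by photoreceptors, was at 516 and 492 RPKM in L1 and 25.3 and 17.6 RPKM in L2, a log2 difference of 4.51 (SE 0.18, adjusted p = 4.77e-09). In the current annotation 83.6% of its exonic bases are shared with CG46244 on the same strand, so the reads are assigned to the locus rather than to either gene. Kug, a cadherin of the Fat family, was at 52.6 and 52.0 RPKM in L1 and 17.96 and 14.2 RPKM in L2. The call higher in L2 that held was that of dally, a glypican, at 2.68 and 2.48 RPKM in L1 and 12.2 and 9.89 RPKM in L2.

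The largest surface list, 44 members with immunoglobulin or leucine-rich repeat domains, had 15 higher in L1 and 8 higher in L2, of which 10 and 6 kept the call without each library in turn. In the main fit 52.3% of this list was called, against 10.3% of all members. CG34353, an immunoglobulin protein, was at 43.2 and 35.7 RPKM in L1 and 0.515 and 0.297 RPKM in L2 (4.84, SE 0.26, adjusted p = 4.29e-08). The Toll-family receptors 18w and Toll-6 went in opposite directions. 18w was at 9.97 and 11.1 RPKM in L1 and 0.0995 and 0.125 RPKM in L2, and Toll-6 at 0.529 and 0.566 RPKM in L1 and 9.87 and 9.94 RPKM in L2. CG34353, 18w and Toll-6 passed the entry rule through the higher type alone and so had to differ.

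The teneurin Ten-a, a synaptic partner-matching protein, was at 136 and 122 RPKM in L1 and 16.5 and 10.4 RPKM in L2, and neuroligin (Nlg2), a postsynaptic adhesion protein, at 12.2 and 15.4 RPKM in L1 and 1.72 and 1.30 RPKM in L2. Connectin (Con) and kek5, both leucine-rich repeat proteins, were higher in L2, with Con at 2.31 and 2.21 RPKM in L1 and 24.4 and 21.6 RPKM in L2, and kek5 at 2.52 and 2.48 RPKM in L1 and 22.5 and 19.1 RPKM in L2. Their log2 differences were 3.21 for Ten-a, 2.56 for neuroligin, -2.88 for Con and -2.63 for kek5.

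Ion channels were called at about the share of all members (10.3%). Of 14 potassium channel members 1 rose in L1 and 1 was higher in L2 (14.3%), as did 1 and 1 of 15 sodium, calcium and cyclic nucleotide channel members (13.3%), and these 4 calls held without each library. SLO2 (CG42732), a potassium channel of the Slo family, was at 69.3 and 78.2 RPKM in L1 and 5.28 and 3.15 RPKM in L2 (3.87, SE 0.21, adjusted p = 4.54e-08). Shaker (Sh), a voltage-gated potassium channel, was at 6.89 and 7.28 RPKM in L1 and 42.9 and 27.4 RPKM in L2. L1 was again the low lamina type for Shaker, with L3 to L5 at 76.3 to 97.7 RPKM on average.

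Cngl, a channel of the cyclic nucleotide-gated family, was at 16.2 and 18.2 RPKM in L1 and 161 and 105 RPKM in L2, a log2 difference of -2.85 (SE 0.37, adjusted p = 0.000191). NaCP60E, of the voltage-gated sodium channel family, was at 4.54 and 6.66 RPKM in L1 and 0.813 and 0.535 RPKM in L2. Genes of vesicle release leaned to L1, with 8 of 21 members higher in L1 (38.1%, against 5.05% of all members), none higher in L2 (5.29% of all members) and a list median of 0.75 against -0.15 for all members. Other lists also had medians above -0.15, such as 0.57 for pan-neuronal genes and 0.46 for axon guidance, while innexins were at -0.75. The pan-neuronal list shares n-syb, Syt1, brp and cpx with the release list. Without L1 replicate 1 or L2 replicate 1 the 8 became 4, and without L1 replicate 2 or L2 replicate 2 they became 3.

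The 3 release genes that held without each library were Syn (synapsin), at 190.3 and 175 RPKM in L1 and 78.2 and 61.4 RPKM in L2, Rbp (RIM-binding protein), at 23.6 and 26.5 RPKM in L1 and 13.3 and 9.12 RPKM in L2, and Rab3, at 86.6 and 94.4 RPKM in L1 and 43.7 and 41.7 RPKM in L2. Their log2 differences were 1.38, 1.11 and 1.06. Of 10 pan-neuronal members, with a list median of 0.57, 1 was called higher in L1 (10.0%), a call lost when any of the 4 libraries was left out and after quantile normalization.

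Genes of cyclic AMP, calcium and small GTPase signalling leaned the other way, with none of 23 members higher in L1, 6 higher in L2 (26.1%, against 5.29% of all members) and a list median of -0.42 against -0.15 for all members; without L2 replicate 1 the 6 became 3. Dunce (dnc), a cyclic AMP phosphodiesterase, was at 10.2 and 9.77 RPKM in L1 and 58.0 and 40.2 RPKM in L2 (-2.17, SE 0.30, adjusted p = 0.000311). Pde1c, a calcium-dependent phosphodiesterase, was at 17.4 and 24.3 RPKM in L1 and 129 and 72.8 RPKM in L2. Rutabaga (rut), an adenylate cyclase, was higher in L2 by -1.14 (adjusted p = 0.00862), and that call ended without L1 replicate 1 (0.0612), L1 replicate 2 (0.0751) or L2 replicate 1 (0.0792).

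Ecdysone drives the pupal timetable, and 3 of 12 members of its response list were higher in L2 while 1 was higher in L1, 33.3% called against 10.3% of all members. Eip78C, a nuclear receptor induced by the hormone, was at 1.18 and 1.06 RPKM in L1 and 33.8 and 29.1 RPKM in L2, a log2 difference of -3.93 (SE 0.17, adjusted p = 8.14e-09). ImpE2 was at 4.34 and 3.46 RPKM in L1 and 21.6 and 77.4 RPKM in L2, and ImpL1 at 18.4 and 19.9 RPKM in L1 and 121 and 284 RPKM in L2; both are induced by ecdysone in imaginal discs. The L2 replicates differ by more than 2-fold for both, and both L1 libraries lie under them.

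Eip78C averaged 23.5 to 66.6 RPKM in L3, L4 and L5, and 17.6 and 39.7 RPKM in R7 and R8, so L1 was the low type for it. EcR, the ecdysone receptor, was at 13.2 and 17.4 RPKM in L1 and 7.08 and 6.74 RPKM in L2 (adjusted p = 0.0231), a call lost when any of the 4 libraries was left out (0.0529 to 0.215) and in the 12 lamina libraries alone (0.0662). With an age field of 24 h for L1 and 35 h for L2, age and type cannot be told apart in this list.

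Of 27 members of the Wnt, BMP, FGF, EGF and Notch pathways, 4 rose in L1 and 5 were higher in L2, 33.3% called against 10.3% of all members, and 2 and 2 kept the call without each library. Argos (aos), a secreted inhibitor of the EGF receptor, was at 39.6 and 36.3 RPKM in L1 and 4.78 and 5.97 RPKM in L2 (2.62, SE 0.20, adjusted p = 1.05e-06), and the Wnt co-receptor arrow (arr) at 11.01 and 11.3 RPKM in L1 and 3.84 and 3.12 RPKM in L2. The EGF receptor gene Egfr went the other way at a low level, with 0.0128 and 0.0123 RPKM in L1 and 1.21 and 1.24 RPKM in L2. Egfr passed the entry rule through L2 alone and so had to differ. Tolloid (tld), a metalloprotease of BMP signalling, was at 4.66 and 5.53 RPKM in L1 and 19.2 and 15.2 RPKM in L2. Without L1 replicate 1, L1 replicate 2 or L2 replicate 1 the L1 count was 2, and without L1 replicate 1, L2 replicate 1 or L2 replicate 2 the L2 count was 3 (2 without L1 replicate 2).

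Of 17 neuronal RNA-binding members, 3 rose in L1 and 1 was higher in L2, 23.5% called against 10.3% of all members. Aret (bru1), a splicing regulator, was at 16.7 and 17.8 RPKM in L1 and 1.66 and 1.26 RPKM in L2 (2.89, SE 0.23, adjusted p = 1.57e-06), and Musashi (msi), a translational repressor, at 0.531 and 0.531 RPKM in L1 and 5.04 and 4.02 RPKM in L2. Musashi passed the entry rule through L2 alone and so had to differ. Aret was the call higher in L1 that held without each library; the count was 1 without L1 replicate 1, L1 replicate 2 or L2 replicate 2, and 2 without L2 replicate 1.

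Genes on the lists of other cells also moved in a few places. Peroxidasin (Pxn), an extracellular matrix peroxidase on the blood cell list, was at 204 and 165 RPKM in L1 and 14.7 and 13.7 RPKM in L2, while the blood cell markers Hml and nimC1 did not pass 0.110 RPKM in any of the 4 libraries. L3 to L5 averaged 126 to 221 RPKM of Pxn. The pigment transporter gene white (w), on the cone and pigment cell list, was at 1057 and 853 RPKM in L1 and 40.0 and 42.4 RPKM in L2, and reads of a white transgene, common in fly lines, cannot be told apart from those of the gene. RdgA, a diacylglycerol kinase on the photoreceptor list, was at 10.5 and 13.2 RPKM in L1 and 3.77 and 2.35 RPKM in L2 (1.67, adjusted p = 0.0108), and its call ended without L1 replicate 2 (0.106) or L2 replicate 2 (0.139).

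On the stress list 1 of 13 members rose in L1 and 1 was higher in L2, 15.4% called and near the 10.3% of all members. TotA, a humoral stress protein, was at 6.50 and 7.91 RPKM in L1 and 0.119 and 0.0309 RPKM in L2, and starvin (stv), a co-chaperone, at 3.27 and 1.71 RPKM in L1 and 18.9 and 19.2 RPKM in L2. No member of the lists for glia (4 members), fat body (2), proliferation (2), medulla neuron factors (3), clock genes (3), immediate early genes (4) or sex determination and dosage compensation (10) was called. After quantile normalization 1 member of the last list, tra, was called higher in L2 (adjusted p = 0.033), as it was in the 4 libraries alone (0.0181).

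**Figure D5:**
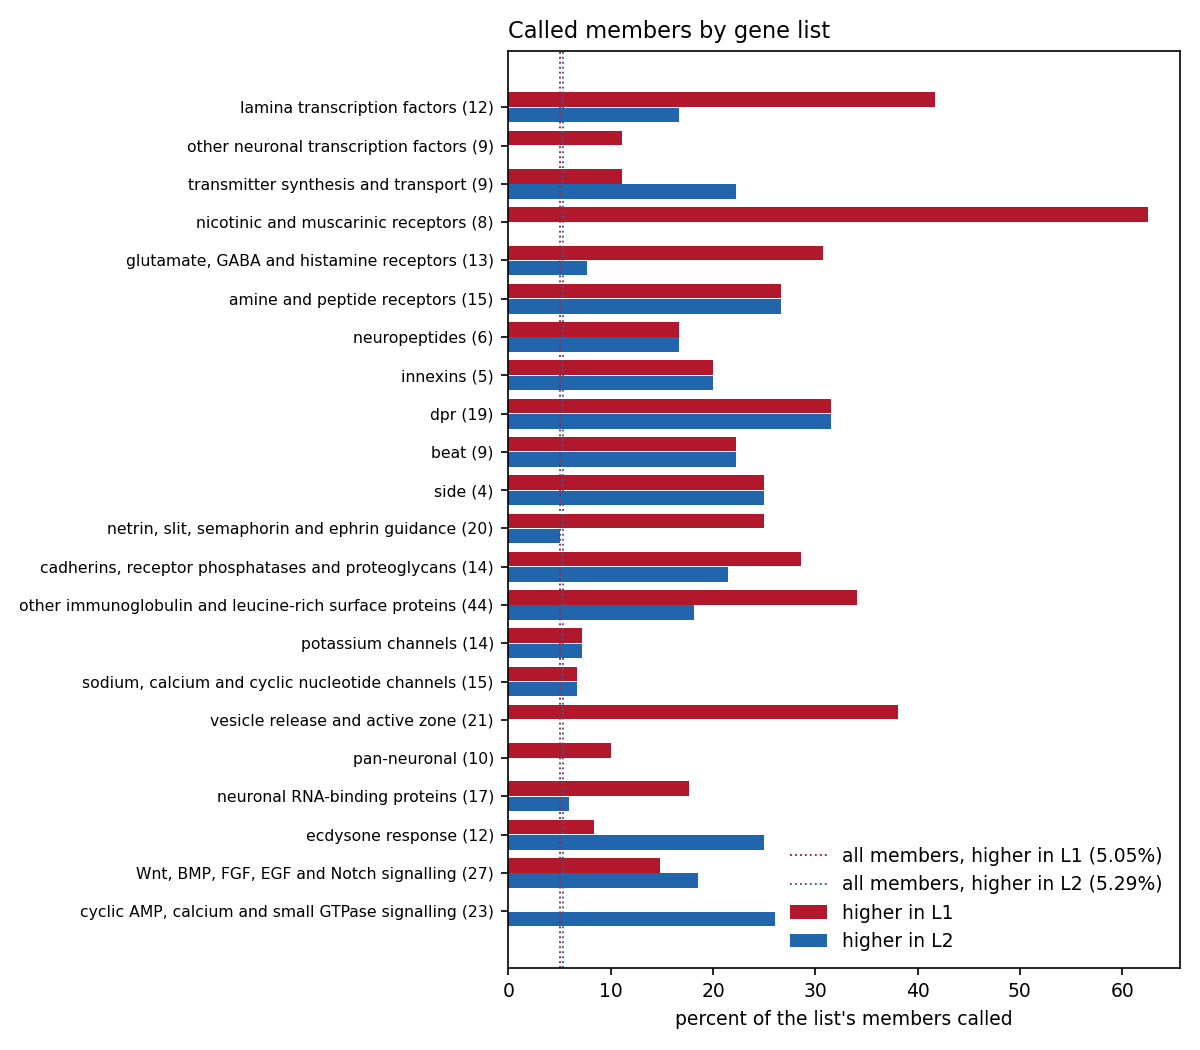
Percent of the members of the gene lists shown called higher in L1 (red, upper bar) and higher in L2 (blue, lower bar) at an adjusted p under 0.05. The number of members is in brackets, and dotted lines mark the percent of all members called (5.05% higher in L1, 5.29% higher in L2). Not all 35 lists are drawn. Left out are stress (15.4% called), sex determination and dosage compensation, glia and immediate early genes (none called), photoreceptors, and very small lists such as DIP. Bars for receptors of acetylcholine (5 of 8) and vesicle release (8 of 21) point to L1 with none for L2, and those for cyclic AMP, calcium and small GTPase signalling (6 of 23) to L2 with none for L1.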

How the data were processed

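All 16 RNA sequencing libraries of sorted cells entered the fit: 4 of L3 and 2 of each other type (L1, L2, L4, L5 and the photoreceptors R7, R8). The authors deposited RPKM values for 15682 genes. TopHat and build BDGP5 are named in the submitters' processing notes; how reads were counted, on which strand and annotation, is not given in the sources used here. Values were used as deposited. Depth (47.05 to 153.6 M reads per library, from the steps between low values and current gene lengths) put 3 reads of a gene of 2 kb at 0.0100 to 0.0187 RPKM in the 4 libraries. No count test was run, because 70.2 to 74.2% of low values (up to 20 reads) were whole to within 0.05. Replicates differed by more than sampling noise.

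Genes at 1 RPKM in at least 2 of 16 libraries (9346) were fitted as log2(RPKM + 1) with limma 3.58.1 in R 4.3.3 (a mean per type, variance trend, Benjamini and Hochberg adjustment over all fitted genes, called under 0.05; treat for changes past 2-fold); the fit was tested on simulated data. Genes named were the 15 greatest called differences each way with a mean of 10 RPKM in the higher type and no overlap of libraries, members of the transcription factor, transmitter, receptor, innexin, dpr, DIP, beat and side lists, up to 8 genes of each other list, and the 5 genes most like svp and bab2. From these the text describes a choice. The members, the 35 lists and this rule were chosen with earlier results of these data known. The lists matched 638 entries, 25 did not match, and 15002 gene IDs had a current symbol. No coordinates or sequences are given, since the reference at hand is a later build without sequence; current symbols and shared exons come from it. Alternatives were quantile normalization, no filter, a pseudocount of 0.1, the 4 libraries alone, the 12 lamina libraries alone, members alone, a replicate block and each of the 4 libraries left out.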

Additional observations from a re-analysis of the deposited data

How the results depend on the processing

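The number of genes called depends on how the spread between libraries was estimated. The main counts were 376 genes higher in L1 and 394 higher in L2. They were 642 and 1183 in the 4 L1 and L2 libraries alone, and 647 and 1178 with the replicate number as a block. The replicate numbers were not shown to pair the libraries: the deviations of the same-numbered libraries of L1 and L2 correlated at 0.18, over only 2 pairs. With the block VGAT, Lcch3, side and tra, not called in the report, passed the threshold (adjusted p = 0.0229, 0.0372, 0.0109 and 0.00869). Leaving out each of the 4 libraries gave 197 to 261 genes higher in L1 and 194 to 288 higher in L2; the type left with 1 library is then assumed to vary like the others. Quantile normalization gave 425 and 325. The count past 2-fold was 203 and lay between 152 and 260 under every alternative run. The differences of svp and bab2 kept their direction and their call under every alternative run. Among the members that the naming rule covers, 12 changed sign after quantile normalization, none of them called, with differences of -0.14 to -0.023 before it. Of those described in the report, GluClalpha, -0.07 in the report, was 0.080 after quantile normalization and -0.22 to 0.085 with a library left out, and beat-IIIb, 0.05 in the report, was -0.010 to 0.11 with a library left out. With 2 libraries a type, small differences between the types could not be told from the spread between libraries.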
